A study of Mus musculus with 20 samples.

Results

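Collagen chains were taken as the rows of the deposited gene table whose name is Col, a number, the letter a and a number. This rule found 44 of the 25219 genes: 11 fibrillar chains, 6 basement membrane chains of type IV, 6 chains of type VI, 9 FACIT chains (fibril-associated collagens with interrupted triple helices), 2 multiplexins, 4 network and anchoring chains, 4 transmembrane chains and 2 chains outside these classes. RNA came from inguinal white adipose tissue (iWAT) and brown adipose tissue (BAT) of male mice on a mixed C57Bl/6 background, with 5 libraries per genotype in each tissue. In Ai-α4KO mice the floxed α4 gene (Igbp1) was deleted by Adiponectin-CreERT2, a recombinase that acts in adipocytes once tamoxifen is given. The study's methods describe Control mice as carrying the floxed alleles without the Cre transgene, whereas the labels of the libraries call them wild type, and all groups received repeated tamoxifen injections as young adults. According to the study's text, RNA was taken a week after recombination. Because the recombinase is driven in adipocytes and whole tissue was sequenced, a chain made by fibroblasts, vessels or muscle comes from cells in which the recombinase is not driven. The labels do not say whether the same mice gave both tissues, nor name the mouse behind each library, so the p-values below measure the spread between these libraries.

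Collagens are trimers of polypeptide chains wound into a triple helix. The fibrillar types I, III and V assemble into the banded fibrils of connective tissue, type IV forms the sheet-like network of basement membranes, and type VI forms beaded filaments that link basement membranes to fibrils. In fat, each adipocyte is wrapped in a basement membrane, and fibroblasts and progenitor cells between the adipocytes are the main source of fibrillar chains. FACIT collagens sit on the surface of fibrils, and multiplexins carry fragments such as endostatin and lie close to basement membranes.

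Partner chains often lie side by side in the genome, and 5 promoter windows are printed for chains whose values are described below. All 3 pairs of type IV genes are arranged head to head in the coordinates of the deposited table (mm10). Col4a1 and Col4a2 on chromosome 8 are separated by 2 bases, Col4a4 and Col4a3 on chromosome 1 by 71 bases, and Col4a6 and Col4a5 on chromosome X by 1342 bases. Other neighbours are Col3a1 and Col5a2 on chromosome 1, 24624 bases apart and facing each other, and Col6a2 and Col6a1 on chromosome 10, 85387 bases apart on the same strand. RefSeq (GRCm38.p6) gave a promoter window for 35 of the 44 chains, each from 250 bases before to 50 bases after the start of the gene in RefSeq, which can differ from the start in the deposited table. Capitals mark the letters of 3 promoter motifs on either strand. The first is the box written CCAAT, the next the GC box with the letters GGGCGG, and the last the TATA box searched as TATAAA, and the reverse complement of each was marked as well. The windows of the Col4a1 and Col4a2 pair, chr8:11312777-11313076 on the minus strand and chr8:11312555-11312854 on the plus strand, share 78 bases:
Col4a1: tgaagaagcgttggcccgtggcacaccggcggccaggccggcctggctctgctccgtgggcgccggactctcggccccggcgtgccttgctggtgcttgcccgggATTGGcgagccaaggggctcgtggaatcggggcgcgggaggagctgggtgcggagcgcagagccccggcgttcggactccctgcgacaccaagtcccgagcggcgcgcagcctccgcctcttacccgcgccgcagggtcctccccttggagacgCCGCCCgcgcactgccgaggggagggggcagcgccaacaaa
Col4a2: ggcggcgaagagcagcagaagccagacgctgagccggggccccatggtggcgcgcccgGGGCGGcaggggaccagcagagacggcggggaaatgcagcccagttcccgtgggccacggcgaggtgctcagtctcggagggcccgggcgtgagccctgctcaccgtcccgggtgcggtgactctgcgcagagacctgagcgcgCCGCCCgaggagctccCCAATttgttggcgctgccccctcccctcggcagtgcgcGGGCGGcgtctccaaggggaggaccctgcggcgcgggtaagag
The windows of Col1a2 (chr6:4505368-4505667, plus strand) and Col3a1 (chr1:45311288-45311587, plus strand), the 2 chains with the highest mean FPKM over all libraries, are:
Col1a2: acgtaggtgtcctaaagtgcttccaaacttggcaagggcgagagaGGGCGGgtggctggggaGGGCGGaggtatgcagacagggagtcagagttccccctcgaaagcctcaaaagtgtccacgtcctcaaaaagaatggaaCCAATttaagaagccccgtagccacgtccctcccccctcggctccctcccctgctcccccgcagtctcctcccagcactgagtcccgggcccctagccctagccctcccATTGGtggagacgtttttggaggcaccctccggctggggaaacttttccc
Col3a1: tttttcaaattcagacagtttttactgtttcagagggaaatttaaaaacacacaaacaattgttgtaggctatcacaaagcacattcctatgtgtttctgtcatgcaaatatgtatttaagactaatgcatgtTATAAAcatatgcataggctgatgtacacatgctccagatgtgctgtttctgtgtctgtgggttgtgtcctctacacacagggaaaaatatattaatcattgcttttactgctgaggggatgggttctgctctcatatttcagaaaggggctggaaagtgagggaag
The window of Col13a1 (chr10:61979059-61979358, minus strand), a transmembrane chain with lower values in Ai-α4KO libraries of both tissues, is:
Col13a1: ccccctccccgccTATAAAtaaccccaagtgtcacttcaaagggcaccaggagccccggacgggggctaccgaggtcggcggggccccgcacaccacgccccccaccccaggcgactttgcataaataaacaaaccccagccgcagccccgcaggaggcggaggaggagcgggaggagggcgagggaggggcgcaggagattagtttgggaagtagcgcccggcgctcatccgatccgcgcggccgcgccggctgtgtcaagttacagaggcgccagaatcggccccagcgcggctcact
GGGCGG or its complement was present in 22 of the 35 chain windows (62.9%) and in 35.7% of all 32851 promoter windows. CCAAT was present in 34.3% of the chain windows and 37.4% of all, and TATAAA in 14.3% and 13.6%. These matches describe letters in the window only.

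Library totals ranged from 24023371 to 50384446 counts, and collagen chains made up between 0.264% (Control BAT) and 1.55% (Ai-α4KO iWAT) of them. As a check of the labels, Igbp1 was at 6.24 to 6.93 normalized FPKM in Ai-α4KO iWAT against 37.9 to 51.8 in Control, and at 9.09 to 16.2 against 58.7 to 68.7 in BAT. Adipoq, which marks adipocytes, was present in all 20 libraries, and Ucp1, which marks brown adipocytes, averaged 3289.7 ± 653 in Control BAT and 103 ± 89.5 in Control iWAT (SD, n = 5). Libraries 1 and 4 of Control iWAT stood apart, with Cd79a, a B cell marker, at up to 121 against a group median of 1.74. Library 1 of Ai-α4KO iWAT stood apart for the collagens themselves, with 8 chains far above the other 4 libraries. Its skeletal muscle markers had a mean log2 CPM of 9.17, against -1.07 to 3.56 in the other 4, and those of Control iWAT 4 were at 9.18, against 0.601 to 3.89 in the rest of its group. Levels are given as normalized FPKM, the count per kilobase of transcript and per unit of sequencing depth after TMM scaling over all 20 libraries. Fold changes come from edgeR fits within each comparison. Ratios of normalized FPKM ran 0.10 below the fitted log2 fold changes in iWAT, for the median gene, and within 0.04 elsewhere. A chain was called at an adjusted p below 0.01 and a difference of at least 2-fold.

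A mean of at least 10 FPKM over the 20 libraries was reached by 13 chains. Col3a1 was the most abundant chain in all 4 groups, at rank 109 of all genes by mean FPKM in Control iWAT, 58 in Ai-α4KO iWAT, 584 in Control BAT and 171 in Ai-α4KO BAT. Fibrillar chains held 66.1 ± 5.57% of summed collagen FPKM in Control iWAT (SD, n = 5) and 76.9 ± 3.52% in Ai-α4KO iWAT (SD, n = 5). In BAT their share was 51.8 ± 5.21% for Controls and 71.8 ± 2.25% for knockouts (SD, n = 5 libraries each). The BAT ranges, 45.01 to 56.98% and 67.9 to 73.6%, did not overlap, while those of iWAT, 59.5 to 71.5% and 71.4 to 79.8%, overlapped by a small margin. The share of basement membrane chains went from 26.95 ± 3.70% to 14.2 ± 2.34% in BAT and from 17.4 ± 4.07% to 10.8 ± 3.33% in iWAT. Type VI chains held 15.8 ± 1.65% in Control BAT and 10.02 ± 0.915% in Ai-α4KO BAT. In iWAT the type VI share was 9.28 to 12.04% in Control and 7.19 to 8.68% in Ai-α4KO libraries, also without overlap. Since shares add up to a whole, the summed levels of each class are given beside them. Summed fibrillar chains stood at 328 ± 78.7 normalized FPKM in Control BAT and 840.3 ± 152 in Ai-α4KO BAT. Summed basement membrane chains stood at 167 ± 19.8 and 167 ± 42.4 in the same groups, means that differ by less than either SD. In iWAT, summed fibrillar chains were 1150.2 ± 409.5 in Control and 1394 ± 395 in Ai-α4KO libraries, within their spread, whereas summed basement membrane chains were 232 to 369 in Control and 141 to 215 in Ai-α4KO libraries, without overlap. These sums are descriptions and were not tested.

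**Figure D1:**
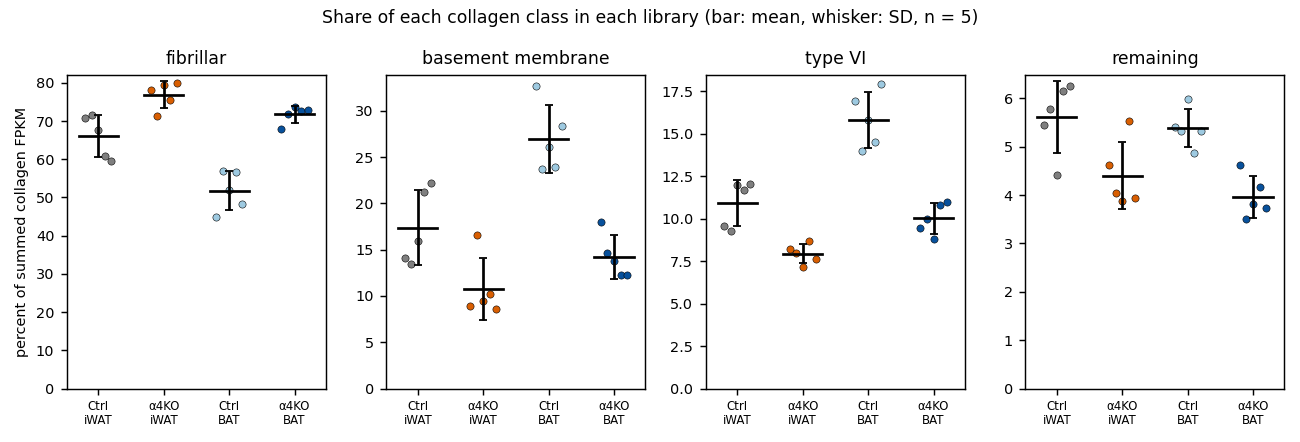
Percent of summed collagen FPKM held by fibrillar, basement membrane, type VI and remaining chains in each of the 20 libraries (points), with the mean (bar) and SD (whisker) of each group of 5. The fibrillar share in BAT has a mean of 51.8% in Control and 71.8% in Ai-α4KO libraries, and the basement membrane share 27.0% and 14.2%.

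The first comparison asked which chains changed in BAT when α4 was lost. Of the 44 chains, 35 passed the filter on low counts, 7 were called higher and 2 lower. The background of all 14344 genes tested was 18.2% called higher and 13.3% lower, so 7 of 35 chains is close to the share of all genes. The median log2 fold change of the 35 chains was 0.31, against -0.03 over all genes tested. Of the 9 fibrillar chains tested, 3 were higher and 1 lower, with a median of 0.85, while limma on FPKM called 5 higher and 0 lower. None of the 5 basement membrane chains tested was called by edgeR, DESeq2 or limma, 1 had an unadjusted p under 0.05, and their median was -0.33. In 10 of the 35 chains the libraries of the groups did not overlap, against a background of 47.7% of genes. The tissue was sequenced in bulk, so fewer cells of a type and less RNA per cell cannot be told apart here or below.

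Col3a1 and Col1a2 showed the largest differences among the 13 abundant chains in BAT. Col3a1 (Entrez 12825, chromosome 1, 45311538 to 45349706), the chain of the type III homotrimer, was at 119, 175, 157, 224 and 147 normalized FPKM in Control BAT libraries 1 to 5. In Ai-α4KO BAT it was at 475, 679.9, 448, 432 and 563. Each knockout library lay above each Control library, and the log2 difference was 1.66 (standard error 0.19, adjusted p = 1.32e-05), or 3.17-fold. Col1a2 (Entrez 12843, chromosome 6, 4505697 to 4541543), the α2 chain of type I collagen, was at 49.8, 73.2, 61.6, 91.4 and 66.9 in Control and at 111, 178, 189, 140.3 and 213 in Ai-α4KO libraries. It was also without overlap and rose 2.44-fold (log2 1.29, standard error 0.21, adjusted p = 0.000194). Its partner Col1a1, the α1 chain of type I, was at 20.9, 25.9, 30.4, 47.6 and 34.8 in Control and 47.7, 80.4, 40.9, 42.7 and 57.03 in Ai-α4KO libraries. Here the groups overlapped, since Control library 4 stood above 2 knockout libraries, and the difference of 0.76 (standard error 0.23, adjusted p = 0.0137) was not called.

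Of the 3 type V chains, which are buried in type I fibrils and set their diameter, 1 was called in BAT. Col5a2 was at 10.1, 14.8, 13.6, 19.6 and 11.4 normalized FPKM in Control and 26.4, 36.2, 29.2, 26.3 and 32.6 in Ai-α4KO libraries, and rose by 1.12 on the log2 scale (standard error 0.18, adjusted p = 0.000155). Col5a1 was at 6.55, 8.096, 8.05, 11.8 and 8.79 and 16.8, 20.5, 13.1, 12.3 and 15.04. Its groups did not overlap either, and its difference of 0.85 (adjusted p = 0.00107) stayed under the 2-fold limit. Col5a3 spread widely in knockout BAT, at 83.96, 58.3, 39.1, 18.9 and 27.8 against 23.1, 36.7, 21.96, 44.05 and 20.8 in Control, and was not called (0.63, adjusted p = 0.142). Knockout libraries 3 and 5 lay within the range of the Controls and library 4 below it, while library 1 was the highest of the tissue.

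**Figure D2:**
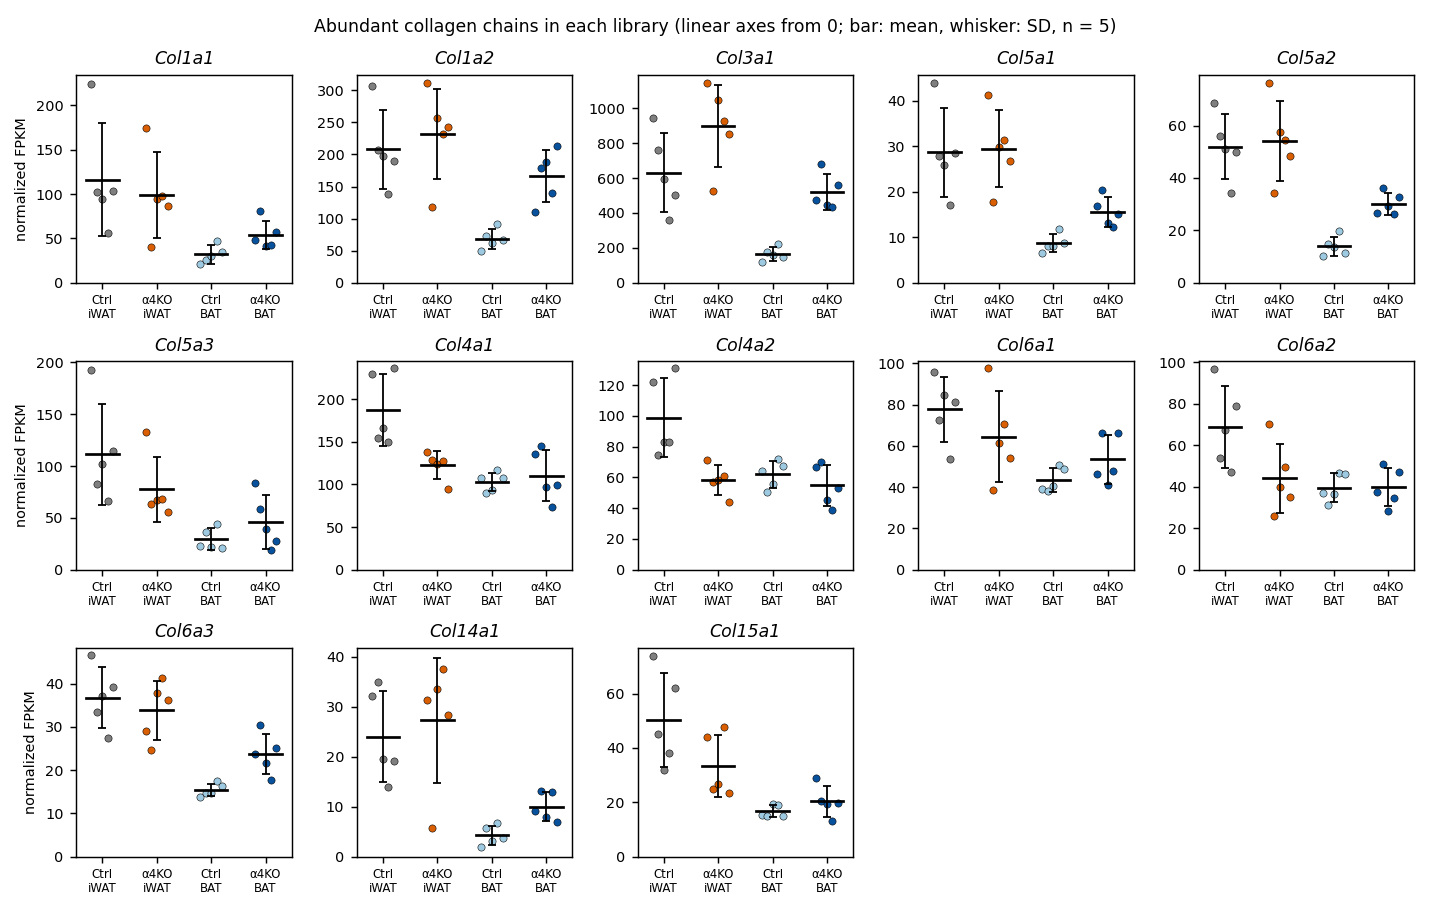
Normalized FPKM of the 13 chains with a mean of at least 10 FPKM, one panel per chain and one point per library, with the mean (bar) and SD (whisker) of 5 libraries in each group. The genotypes do not overlap in BAT for Col3a1, Col1a2, Col5a1, Col5a2, Col6a3 and Col14a1, and in iWAT for Col4a1 and Col4a2.

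Of 7 FACIT chains tested, Col14a1, Col16a1 and Col22a1 were called higher in Ai-α4KO BAT, against 18.2% of all genes, and Col22a1 had few counts in Control libraries. Col14a1, which binds the surface of type I fibrils, was at 1.903, 5.63, 3.12, 6.75 and 3.75 normalized FPKM in Control and 9.07, 13.1, 7.84, 12.8 and 6.97 in Ai-α4KO libraries (log2 1.24, standard error 0.31, adjusted p = 0.00406). The lowest knockout library lay just above the highest Control library. Col16a1, a chain of small fibril-associated and microfibril-associated trimers, was at 0.777, 1.098, 1.11, 1.68 and 1.17 in Control and 2.38, 3.28, 1.76, 2.01 and 2.66 in knockout libraries, a log2 fold change of 1.05 (adjusted p = 0.00127). Col22a1, known from the junctions between muscle and tendon, was at 0.0307, 0.0381, 0.0459, 0.0358 and 0.00679 in Control and 0.115, 0.124, 0.185, 0.133 and 0.139 in knockout libraries, which rested on 1 to 6 and 24 to 28 counts. The groups were apart, and the fitted log2 difference was 2.12 (standard error 0.38, adjusted p = 0.00046). All 5 knockout and 0 of 5 Control libraries reached the CPM cutoff of the low-count filter, so Col22a1 entered the test only through the group where it is high, and its call cannot be read as support. Col26a1, outside the structural classes, was at 0.0348, 0.115, 0.104, 0.0541 and 0.154 in Control and 0.111, 0.271, 0.217, 0.568 and 0.654 in knockout libraries (2 to 10 and 11 to 50 counts). Knockout library 1 lay inside the Control range, and the log2 difference was 1.96 (standard error 0.55, adjusted p = 0.00769). It passed the filter mainly through the higher group, with 4 knockout and 1 Control library at the cutoff. With at least 10 counts required in every library, neither Col22a1 nor Col26a1 was tested, and 5 chains of 29 were called higher, against 15.6% of all genes under that filter.

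Both chains that were lower in knockout BAT were of low abundance. Col13a1 (Entrez 12817, chromosome 10, 61838234 to 61979108), a transmembrane collagen of cell-matrix contacts and neuromuscular junctions, was at 0.654, 0.492, 0.727, 0.774 and 0.762 normalized FPKM in Control and 0.137, 0.215, 0.0664, 0.139 and 0.224 in Ai-α4KO BAT. The highest knockout library lay below the lowest Control library, with -2.10 on the log2 scale (standard error 0.31, adjusted p = 0.000105). All 5 Control and 4 of 5 knockout libraries reached the filter cutoff, so Col13a1 too entered the test through the group where it is high, and its call, like the others of this kind below, is given as a value and not as support. Col11a2, a fibrillar chain best known from cartilage, was at 2.66, 1.01, 1.17, 0.698 and 1.64 in Control and 0.412, 0.494, 0.232, 0.285 and 0.328 in knockout libraries. The groups did not overlap, and the log2 difference was -2.02 (standard error 0.35, adjusted p = 0.000315). With the muscle marker score described below as a covariate, Col11a2 was at -1.27 (adjusted p = 0.0185) and was not called. Of the 4 cartilage markers, Matn1 was at 0 in all 10 BAT libraries, Acan at 0 to 0.0320 normalized FPKM in Control and 0 to 0.00369 in knockout libraries, and Hapln1 at 0 to 0.0279 and 0.00537 to 0.0108. Comp was at 0.0481 to 0.181 in Control and 0.139 to 0.258 in knockout BAT, and the 1 of the 4 that passed the filter (0.97, adjusted p = 0.0612, not called).

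No basement membrane or type VI chain was called in BAT. Col4a1, the α1 chain of the ubiquitous type IV trimer, was at 107, 89.7, 93.4, 116 and 107 normalized FPKM in Control and 135, 145, 96.9, 73.7 and 99.2 in Ai-α4KO libraries. Col4a2, its partner in the same trimer, was at 64.4, 50.4, 55.7, 72.02 and 67.7 and 66.8, 69.9, 45.4, 38.95 and 53.1. Within the knockout group, libraries 1 and 2 were the highest and 4 the lowest for both chains, and neither difference was called (0.10 with adjusted p = 0.621, and -0.17 with adjusted p = 0.376). The minor chains Col4a3, Col4a4 and Col4a5 ranged from 0.102 to 1.98 normalized FPKM in BAT, and Col4a4 had the largest difference (-0.79, adjusted p = 0.0114). Among the chains of type VI, Col6a1 was at 39.2, 38.1, 40.4, 50.95 and 48.8 in Control and 46.2, 66.3, 41.1, 47.7 and 66.3 in knockout libraries (0.31, adjusted p = 0.107). Col6a2 was at 36.9, 31.02, 36.7, 46.9 and 46.4 and 37.3, 50.9, 28.5, 34.8 and 46.999 (0.01, adjusted p = 0.965). Col6a3, the long chain from which endotrophin is cleaved, was at 13.9, 14.8, 14.6, 17.4 and 16.3 and 23.7, 30.4, 21.7, 17.7 and 25.1, without overlap. Its difference of 0.63 (standard error 0.14, adjusted p = 0.00179) stayed below 2-fold. Of the multiplexins, Col15a1 was at 15.2, 14.9, 19.4, 18.8 and 14.99 in Control and 28.8, 20.3, 19.5, 13.2 and 19.7 in Ai-α4KO libraries (0.29, adjusted p = 0.163), and Col18a1, the source of endostatin, was at 3.25 to 3.59 and 3.101 to 5.85 (0.50, adjusted p = 0.023). The anchoring fibril chain Col7a1 and the short chain Col8a1 had differences of -0.04 and 0.18 and were not called.

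**Figure D3:**
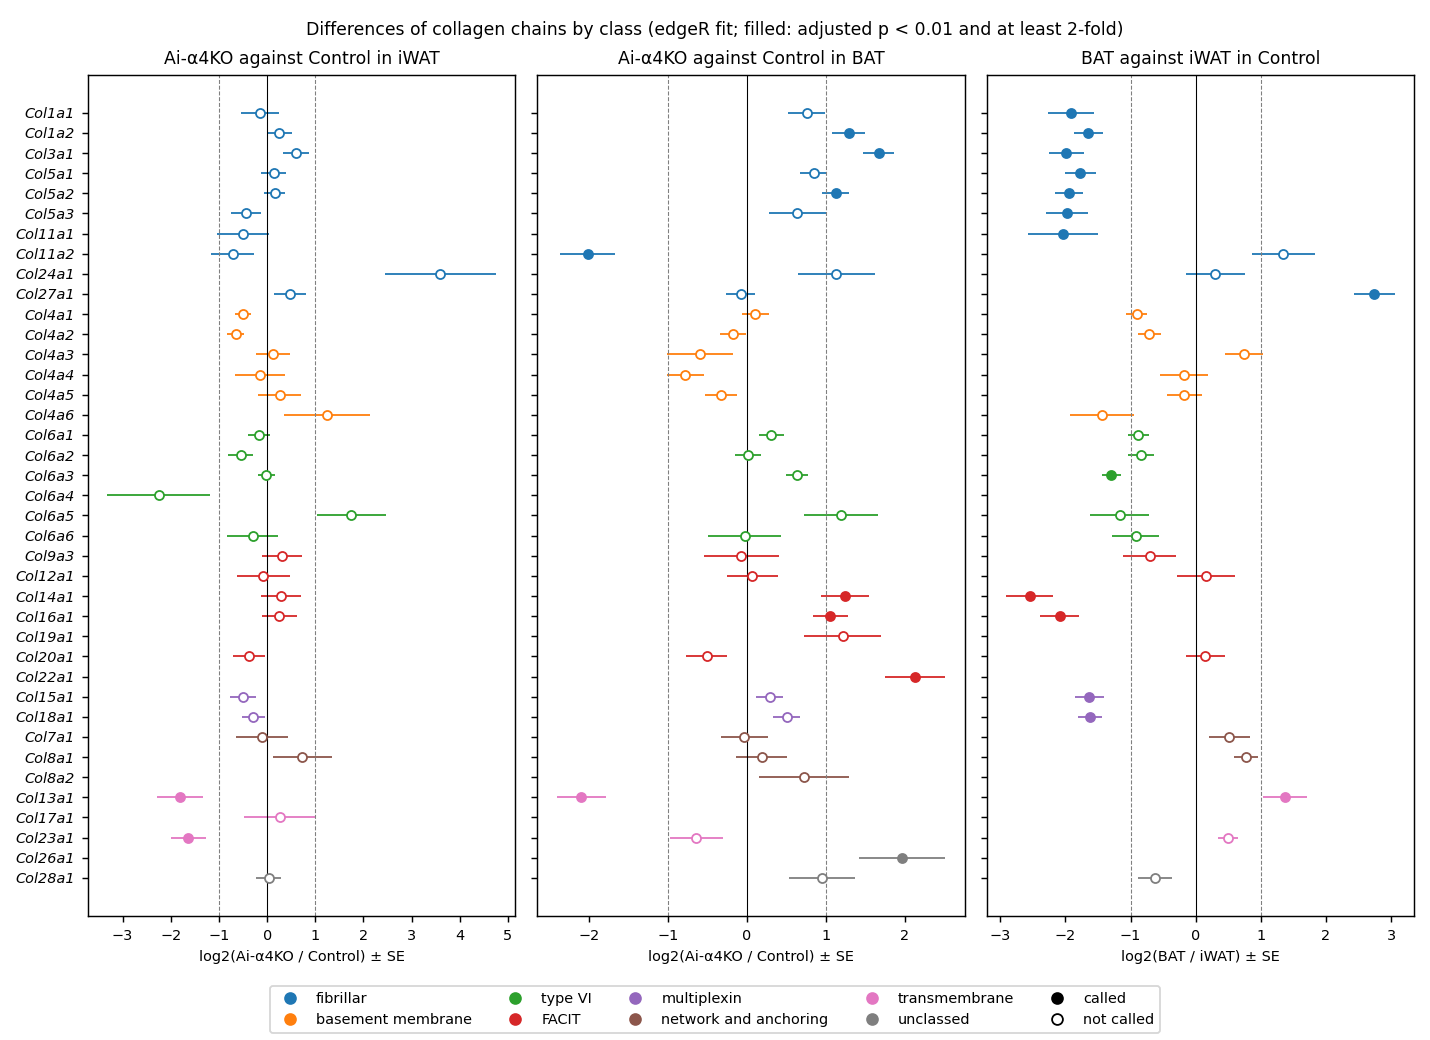
Log2 fold change of each tested collagen chain with its standard error, by class (colour), in Ai-α4KO against Control iWAT, Ai-α4KO against Control BAT, and Control BAT against Control iWAT; filled points were called and dashed lines mark 2-fold. In BAT the called fibrillar and FACIT chains lie between 1.05 and 2.12 except Col11a2 at -2.02, while in iWAT Col13a1 and Col23a1 are the filled points.

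Markers of other cell types moved with genotype in BAT. Of 6 macrophage markers all 6 were called higher, with a summed level of 2980 to 4771 normalized FPKM in Ai-α4KO against 147 to 334 in Control libraries. Of 8 fibroblast and progenitor markers 4 were higher (Cd34, Fbn1, Lum and Ly6a), and their sum was 883 to 1073 against 413 to 574. Of 8 adipocyte markers 5 were lower, with sums of 18448 to 21669 against 25837 to 30436, and 2 of 4 brown adipocyte, 3 of 5 endothelial and 2 of 5 mural markers were lower. Of 6 skeletal muscle markers 4 were higher (sums of 4676 to 14877 against 341 to 3557), as was Scx of 3 tendon and myofibroblast markers, at 0.359 to 2.49 against 0.0414 to 0.616. Of the other two, Postn was at 32.7 to 42.7 in knockout and 56.1 to 74.8 in Control libraries, without overlap in the opposite direction and under 2-fold (-0.83, adjusted p = 1e-04), and Tnmd was not called (1.47, adjusted p = 0.0589). Of the 4 B cell markers Cd79b was higher in BAT (1.27, adjusted p = 0.00438), and no Schwann cell, cartilage or skin epithelium marker was called. The part of these cell types in the differences of the collagen chains was not tested, except for skeletal muscle. With the mean log2 level of the muscle markers as a covariate, 1 chain (Col3a1, 1.51, adjusted p = 0.00119) was called higher in place of 7, and over all genes 1700 in place of 2614. Col1a2 was then at 0.97 (adjusted p = 0.0196), Col5a2 at 0.94 (adjusted p = 0.0125), Col16a1 at 0.89 (adjusted p = 0.0467), Col22a1 at 2.13 (adjusted p = 0.0197), Col14a1 at 0.61 (adjusted p = 0.236) and Col26a1 at 0.39 (adjusted p = 0.705). The muscle score did not overlap between the genotypes (6.46 to 9.99 in Control and 10.4 to 12.0 in Ai-α4KO on the log2 CPM scale), so it is confounded with genotype. Without single libraries, the number of chains called higher in BAT ranged from 5 to 7. Calls were lost for Col26a1 without any of 6 of the 10 libraries (largest adjusted p = 0.022), for Col14a1 without Control BAT 3 or 5 or Ai-α4KO BAT 2 (largest adjusted p = 0.0125), and for Col16a1 without Control BAT 1 or Ai-α4KO BAT 2 (log2 0.93 in both).

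The same question in iWAT gave fewer called chains. Of 35 chains tested, none was called higher by edgeR, DESeq2 or limma on FPKM (3 had a positive difference at an unadjusted p under 0.05), and 2 were called lower by edgeR and DESeq2 and 0 by limma. The background of 14604 genes was 11.3% called higher and 10.7% lower. The median over the chains was -0.08, against 0.01 for all genes tested, and in 4 of the 35 chains, all lower, the groups did not overlap, against 39.1% of genes. Both called chains were transmembrane collagens of low abundance. Col23a1 was at 0.845, 0.989, 0.844, 0.980 and 0.746 normalized FPKM in Control and 0.566, 0.181, 0.112, 0.256 and 0.216 in Ai-α4KO iWAT. The knockout libraries were all below the Controls, with library 1 nearest to them, and the log2 difference was -1.64 (standard error 0.36, adjusted p = 0.00276). In BAT the same chain was at 1.39, 1.08, 1.33, 1.35 and 1.25 in Control and 0.326, 0.441, 0.875, 1.31 and 1.11 in knockout libraries, of which library 4 and library 5 reached the Control range (-0.64, adjusted p = 0.116). Col13a1 was at 0.268, 0.132, 0.451, 0.139 and 0.290 in Control iWAT and 0.0888, 0.0404, 0.0310, 0.0486 and 0.131 in Ai-α4KO iWAT. The lowest Control value was just above the highest knockout value, and the log2 difference was -1.81 (standard error 0.48, adjusted p = 0.00819, on 4 to 17 counts in knockout libraries). It entered the test only through the Control group, since 2 knockout libraries and all 5 Control libraries reached the filter cutoff. That call was lost in 7 of the 10 fits that left out 1 library (Control iWAT 1, 3 or 5 or Ai-α4KO iWAT 1, 2, 3 or 4), with adjusted p between 0.012 and 0.0246 and log2 fold changes between -1.56 and -1.90. Without Control iWAT 1 and 4 together, no chain was called lower (Col23a1 -1.66, adjusted p = 0.0105; Col13a1 -2.05, adjusted p = 0.011). With Ai-α4KO iWAT 1 also left out, Col23a1 was at -2.09 (adjusted p = 0.000367) and was called.

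**Figure D4:**
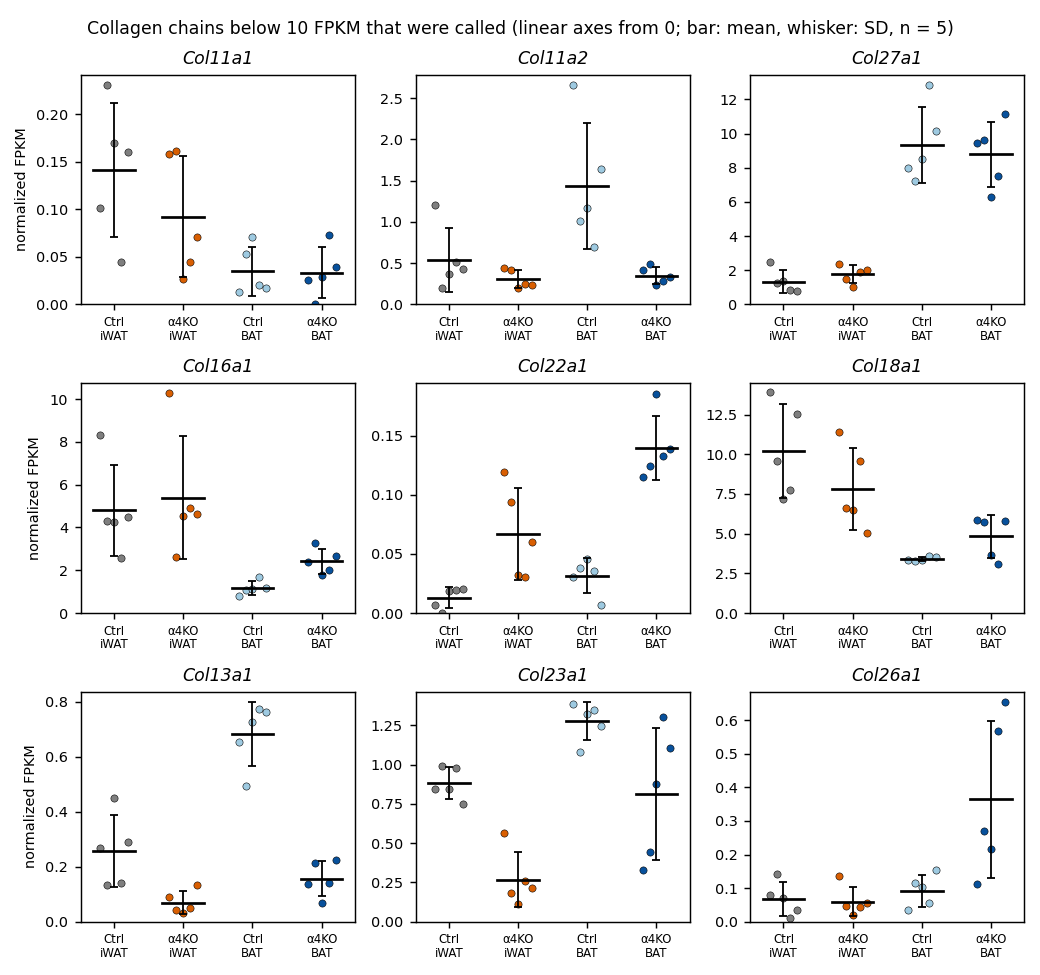
Normalized FPKM of the 9 chains under a mean of 10 FPKM that were called in a comparison, one point per library, with mean (bar) and SD (whisker) of 5 libraries per group. Col13a1 in both tissues, Col23a1 in iWAT and Col11a2 in BAT lie lower in Ai-α4KO libraries without overlap, and Col27a1 is 6.28 to 12.8 in BAT and at most 2.48 in iWAT.

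Col4a1 and Col4a2, the head-to-head pair printed above, were the 2 other tested chains without overlap in iWAT. Col4a1 (Entrez 12826, chromosome 8, 11198423 to 11312826) was at 229, 154, 166, 149.6 and 236 normalized FPKM in Control and 138, 129, 124, 127 and 94.6 in Ai-α4KO libraries. Col4a2 (Entrez 12827, chromosome 8, 11312829 to 11449287) was at 122, 74.9, 83.3, 82.98 and 131 and 71.2, 57.3, 58.5, 61.3 and 44.3. Control libraries 1 and 5 were the highest and knockout library 5 the lowest for both, and the differences of -0.51 (standard error 0.16, adjusted p = 0.021) and -0.65 (standard error 0.18, adjusted p = 0.0103) did not pass the threshold. None of the 6 basement membrane chains was called in iWAT by edgeR, DESeq2 or limma, and 2 had an unadjusted p under 0.05. Markers of endothelial cells, which line vessels on a type IV membrane, were lower for 2 of 5 (Kdr -1.70 and Cdh5 -1.18), with a summed level of 61.5 to 76.1 in Ai-α4KO against 107 to 141 in Control iWAT. Of 5 mural markers 2 were lower, and of 8 adipocyte markers 6 were lower. All 6 macrophage markers were higher, 1 of 8 fibroblast and progenitor markers (Ly6a) was higher, 3 of 4 brown adipocyte markers and Cd79a were lower, and no skeletal muscle, Schwann cell, tendon, cartilage or skin epithelium marker was called. Their part in these values was not tested.

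Fibrillar chains of iWAT overlapped between genotypes. Col3a1 was at 945, 759, 594, 359.9 and 500.1 normalized FPKM in Control and 1141, 526, 1049, 924 and 852 in Ai-α4KO libraries, and its difference of 0.61 (standard error 0.27, adjusted p = 0.0778) was not called. Col1a2 was at 307, 207, 198, 138 and 190.2 and 311, 119, 256, 232 and 242 (0.25, adjusted p = 0.427), and Col1a1 at 225, 102, 94.8, 56.3 and 104 and 175, 40.6, 94.4, 98.3 and 86.7 (-0.14, adjusted p = 0.779). Library 1 was the highest of its group for all 3 chains in both genotypes, and knockout library 2 the lowest of its group. For type V, Col5a1 was at 43.9, 27.9, 25.9, 17.01 and 28.6 in Control and 41.4, 17.9, 29.9, 31.3 and 26.7 in knockout libraries (0.13, adjusted p = 0.679). Col5a2 was at 68.6, 56.1, 51.1, 34.3 and 49.8 and 76.2, 34.4, 57.6, 54.6 and 48.3 (0.16, adjusted p = 0.561). Col5a3 was at 192, 82.3, 102, 65.996 and 115 and 133, 63.7, 66.8, 68.4 and 55.9 (-0.43, adjusted p = 0.255). The standard errors of these 6 chains ran from 0.22 (Col5a2) to 0.40 (Col1a1) on the log2 scale. Col24a1, a minor fibrillar chain, had the largest positive difference (3.60, standard error 1.15, adjusted p = 0.0208), which rested on 6.46 in Ai-α4KO iWAT 1 against at most 0.37 in the other 4 knockout libraries.

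In type VI the iWAT values were likewise interleaved. Col6a1 was at 95.9, 72.7, 84.6, 53.9 and 81.3 normalized FPKM in Control and 97.96, 38.6, 61.2, 70.7 and 54.1 in Ai-α4KO libraries (-0.17, adjusted p = 0.542). Col6a2 was at 96.9, 53.6, 67.2, 47.3 and 78.8 and 70.1, 26.1, 39.7, 49.3 and 34.96 (-0.55, adjusted p = 0.0991), and Col6a3 at 46.5, 33.3, 37.003, 27.5 and 39.2 and 28.97, 24.7, 37.8, 41.2 and 36.2 (-0.02, adjusted p = 0.942). No chain of this type was called. Col14a1 was at 32.2, 35.01, 19.5, 13.995 and 19.1 in Control and 31.4, 5.73, 33.4, 37.5 and 28.3 in knockout libraries, where library 2 was far below the other 4 (0.28, adjusted p = 0.59). Col15a1, abundant around capillaries and adipocytes, was at 73.7, 45.3, 31.95, 38.01 and 62.1 and 43.9, 25.01, 26.8, 47.6 and 23.4 (-0.50, adjusted p = 0.143), and Col18a1 at 7.21 to 13.9 and 5.06 to 11.4 (-0.29, adjusted p = 0.334). The FACIT chain Col16a1 was at 8.32, 4.31, 4.28, 2.596 and 4.48 and 10.3, 2.63, 4.52, 4.93 and 4.62, with library 1 the highest of both groups (0.26, adjusted p = 0.571). Of the chains called in BAT, Col11a2 was at 1.21, 0.201, 0.364, 0.519 and 0.426 in Control and 0.446, 0.415, 0.205, 0.253 and 0.240 in knockout iWAT (-0.72, adjusted p = 0.194). Col22a1 (0 to 4 counts in Control and 8 to 27 in knockout libraries) and Col26a1 (1 to 12 and 2 to 13 counts) did not pass the filter in iWAT, and the groups did not overlap for Col22a1 (0.00691, 0, 0.0189, 0.0192 and 0.0200 normalized FPKM in Control and 0.119, 0.0939, 0.0320, 0.0307 and 0.0599 in knockout libraries). Col26a1 was at 0.0783, 0.143, 0.0713, 0.0109 and 0.0340 in Control iWAT and 0.135, 0.0473, 0.0181, 0.0442 and 0.0543 in Ai-α4KO iWAT.

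Ratios of chains within a library do not depend on library scaling, and 6 ratios were compared in each tissue by exact permutation tests over 252 arrangements (two-sided, smallest possible p 0.0079, Benjamini-Hochberg over 12 tests). The ratio of Col3a1 to Col1a1 was higher in Ai-α4KO libraries of both tissues. In BAT it was 5.69, 6.78, 5.17, 4.72 and 4.21 in Control libraries 1 to 5 and 9.95, 8.45, 10.9, 10.1 and 9.87 in those of Ai-α4KO mice, without overlap (log2 difference 0.91, exact permutation p = 0.00794, adjusted p = 0.0238). In iWAT it was 4.21, 7.42, 6.27, 6.39 and 4.83 and 6.52, 12.95, 11.1, 9.395 and 9.82, with only knockout library 1 inside the Control range (log2 difference 0.77, exact permutation p = 0.0159, adjusted p = 0.0382). The ratio of Col6a2 to Col6a1 was lower in knockout libraries of both tissues. It was 1.01, 0.738, 0.794, 0.877 and 0.969 in Control and 0.715, 0.677, 0.649, 0.698 and 0.646 in Ai-α4KO iWAT (log2 difference -0.37, exact permutation p = 0.00794, adjusted p = 0.0238), and 0.940, 0.814, 0.910, 0.920 and 0.951 and 0.808, 0.767, 0.693, 0.730 and 0.709 in BAT (log2 difference -0.29, exact permutation p = 0.00794, adjusted p = 0.0238). Neither tissue showed an overlap.

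The head-to-head pair also shifted. Col4a1 over Col4a2 was 1.67, 1.78, 1.68, 1.62 and 1.58 in Control and 2.03, 2.08, 2.13, 1.89 and 1.87 in Ai-α4KO BAT, without overlap (log2 difference 0.26, exact permutation p = 0.00794, adjusted p = 0.0238). In iWAT the values were 1.88, 2.06, 1.99, 1.803 and 1.802 and 1.94, 2.24, 2.12, 2.08 and 2.13, and the difference of 0.14 did not pass (exact permutation p = 0.0397, adjusted p = 0.0681). Col6a3 over Col6a1 was higher in knockout BAT by 0.32 (exact permutation p = 0.0238, adjusted p = 0.0476) and in iWAT by 0.19 (exact permutation p = 0.452, adjusted p = 0.493), where knockout library 1 was at 0.296 and the other 4 above all Controls. The ratios within type I (Col1a1 over Col1a2) and within type V (Col5a1 over Col5a2) did not pass in either tissue. Differences for Col1a1 over Col1a2 were -0.37 in iWAT (exact permutation, adjusted p = 0.133) and -0.51 in BAT (exact permutation, adjusted p = 0.0952), and for Col5a1 over Col5a2 they were 0.00 (exact permutation, adjusted p = 0.96) and -0.30 (exact permutation, adjusted p = 0.0952).

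**Figure D5:**
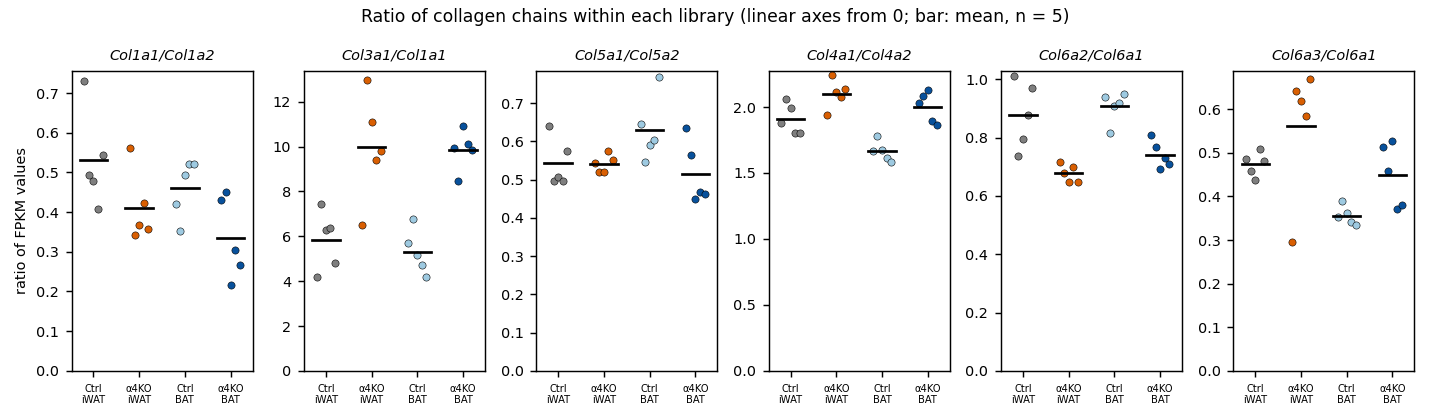
Ratio of deposited FPKM values of 6 pairs of chains in each library (points), with the mean of each group of 5 (bar). Col3a1 over Col1a1 and Col6a2 over Col6a1 shift in opposite directions in Ai-α4KO libraries, and in both tissues.

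In Control mice most abundant chains were lower in BAT than in iWAT. Of 33 chains tested, 12 were called lower and 2 higher, against a background over 14260 genes of 14.7% lower and 7.22% higher. The median over the chains was -0.88, and -0.01 over all genes. In 19 of the 33 chains the groups did not overlap (15 lower and 4 higher), against 37.4% of genes. Of 10 fibrillar chains 7 were lower: Col1a1 (-1.92), Col1a2 (-1.65), Col3a1 (-1.99), Col5a1 (-1.77), Col5a2 (-1.95), Col5a3 (-1.97) and Col11a1 (-2.04). For the first 6 the levels given above did not overlap between the tissues, with Col5a2 at the smallest adjusted p (3.43e-05, standard error 0.22). Col11a1, a cartilage-type fibrillar chain, was at 0.102, 0.230, 0.170, 0.0444 and 0.160 normalized FPKM in Control iWAT and 0.0129, 0.0535, 0.0710, 0.0201 and 0.0172 in Control BAT. It overlapped between the tissues, entered the test through iWAT (5 iWAT and 2 BAT libraries at the filter cutoff), rested on 2 to 11 counts in BAT, and lost its call without any of 8 of the 10 libraries (adjusted p 0.0115 to 0.0242). Its values in Ai-α4KO libraries were 0.158, 0.161, 0.0269, 0.0446 and 0.0706 in iWAT and 0.0262, 0, 0.0289, 0.0732 and 0.0389 in BAT.

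Other classes followed in part. Col14a1 had the largest negative difference (-2.55, standard error 0.36, adjusted p = 0.000162), or 5.85-fold higher in iWAT. Col16a1 (-2.09, adjusted p = 0.000185), Col15a1 (-1.64, adjusted p = 0.000117), Col18a1 (-1.62, adjusted p = 3.51e-05) and Col6a3 (-1.30, adjusted p = 3.34e-05) were lower as well. Col4a1 (-0.91, adjusted p = 0.000679) and Col4a2 (-0.71, adjusted p = 0.00603) differed in the same direction but by less than 2-fold, as did Col6a1 (-0.88) and Col6a2 (-0.84). Of the 3 fibrillar chains with a positive difference, Col27a1, a long fibrillar collagen of cartilage and other tissues, was called. It was at 2.48, 1.24, 1.36, 0.862 and 0.782 normalized FPKM in Control iWAT and 7.99, 7.24, 8.53, 12.8 and 10.1 in Control BAT, 6.69-fold higher in BAT (log2 2.74, standard error 0.32, adjusted p = 4.19e-05). No library of one tissue reached the range of the other. Col11a2, at the levels given above, overlapped between the tissues and was not called (1.34, standard error 0.49, adjusted p = 0.0372). Without Control iWAT 1, the highest library of its group, Col11a2 was called higher in BAT (1.89, adjusted p = 0.00384), and DESeq2 called it in all libraries. Col13a1 was also higher in BAT (1.37, standard error 0.34, adjusted p = 0.00561), a call that was lost without any of 8 of the 10 libraries (Control iWAT 1, 2, 4 or 5 or Control BAT 1, 3, 4 or 5, adjusted p 0.0112 to 0.0137). Fibroblast and progenitor markers were lower in Control BAT for 6 of 8, with sums of 413 to 574 in BAT against 819 to 1342 in iWAT. Macrophage and B cell markers were lower for all 6 and all 4, and 4 of 4 brown adipocyte and 2 of 5 endothelial markers were higher. With the muscle marker score as a covariate 8 chains were lower in place of 12, since 4 lost their calls, and over all genes 1570 were lower in place of 2092. Of the chains that lost their calls, Col1a1 was then at -1.51 (adjusted p = 0.0534), Col5a3 at -1.68 (adjusted p = 0.0176), Col16a1 at -1.72 (adjusted p = 0.0129) and Col11a1 at -0.87 (adjusted p = 0.423). The muscle score was at 6.46 to 9.95 in Control BAT and at 0.601 to 3.89 in Control iWAT, except library 4 (9.18). It is therefore largely confounded with tissue.

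In Ai-α4KO mice fewer chains separated the tissues. Of 39 chains tested, 2 were called higher in BAT and none lower by edgeR, whereas 11 had a negative difference at an unadjusted p under 0.05, DESeq2 called 3 lower (Col14a1, Col16a1 and Col4a6) and limma on FPKM 1 (Col5a1). The background over 14703 genes was 8.4% higher and 3.09% lower, and the groups did not overlap for 1 chain, against 24.1% of genes. Col27a1 was at 2.39, 1.503, 0.995, 1.896 and 2.01 normalized FPKM in Ai-α4KO iWAT and 9.44, 9.59, 6.28, 7.54 and 11.1 in Ai-α4KO BAT, and was the 1 chain without overlap (2.30, standard error 0.23, adjusted p = 9.75e-05). Its difference by genotype was not called in either tissue (0.48, adjusted p = 0.242 in iWAT, and -0.08, adjusted p = 0.704 in BAT). Col26a1 was the other (2.61, adjusted p = 0.0062), at the levels of knockout iWAT and BAT given above. It entered the test through BAT, with 5 BAT libraries and 1 iWAT library at the filter cutoff, and its call was lost without any of 6 of the 10 libraries (adjusted p 0.0155 to 0.0184). Without Ai-α4KO iWAT 1, Col23a1, Col12a1 and Col7a1 were called higher in addition, and without Ai-α4KO iWAT 2 Col1a1, Col5a1, Col14a1 and Col16a1 were called lower and Col19a1 higher (2.53, adjusted p = 0.00692). Col5a1 was also called lower without Ai-α4KO BAT 2 (-1.05, adjusted p = 0.00369). With the muscle marker score as a covariate neither Col27a1 (2.12, adjusted p = 0.0452) nor Col26a1 (1.14, adjusted p = 0.559) was called in Ai-α4KO mice, and over all genes 10 were called higher in place of 1235. The same fit called 3 chains lower in place of 0, and over all genes 26 (0.177%) in place of 454. Among the 3 was Col4a6 (-7.16, adjusted p = 0.0022), which had 0 to 10 counts in Ai-α4KO BAT. The muscle score did not overlap between the tissues either (-1.07 to 9.17 in Ai-α4KO iWAT and 10.6 to 12.3 in Ai-α4KO BAT). Type I, III and V chains had differences of -0.90 (Col1a1), -0.50 (Col1a2), -0.81 (Col3a1), -0.95 (Col5a1), -0.87 (Col5a2) and -0.80 (Col5a3), all under 2-fold. The median over all chains was -0.50. This comparison and that in Control mice use different libraries, but each shares libraries with the genotype comparisons.

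The difference between the genotype effects in BAT and iWAT was tested as an interaction over all 20 libraries. None of 39 chains was called by edgeR or by limma on FPKM, against a background of 3.83% of 15230 genes called in either direction. At an unadjusted p under 0.05 there were 13 chains, 11 of them with a positive estimate (a higher value of knockout over Control in BAT than in iWAT). DESeq2 called 4 (Col1a2, Col3a1, Col5a2 and Col6a4). Among the abundant chains the interaction was 1.09 for Col3a1 (standard error 0.34, adjusted p = 0.0379), 1.06 for Col1a2 (standard error 0.34, adjusted p = 0.0429) and 0.99 for Col5a2 (standard error 0.29, adjusted p = 0.0271). Without Ai-α4KO iWAT 1, Col5a2 was called (1.24, adjusted p = 0.00621). Col6a4 had the largest estimate (7.08, adjusted p = 0.022), with 0 to 1 counts in Control BAT. In Control iWAT it was at 0.874, 0.0173, 0.0104, 0.296 and 0.0206 normalized FPKM, and without Control iWAT 1 and 4 the estimate was 3.29 (adjusted p = 0.216). For Col4a1 and Col4a2 it was 0.64 (adjusted p = 0.0788) and 0.51 (adjusted p = 0.175), so a difference between the tissues in the type IV response was not shown.

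Genes that make, modify and sense collagen were followed beside the chains, with 46 in the table. In BAT 14 of 43 tested were called higher and 1 lower, with a median of 0.48, and in iWAT 3 of 44 were higher and 1 lower, with a median of 0.24. The shares over all genes were 18.2% higher and 13.3% lower in BAT, and 11.3% and 10.7% in iWAT. By role, 4 of 12 hydroxylases, 3 of 10 folding, glycosylation and secretion genes, 3 of 7 procollagen trimming genes, 3 of 6 cross-linking and binding genes and 1 of 8 receptors were higher in BAT. Of the 14, P4ha3 and Loxl4 passed the low-count filter only through the group where they are high. P4ha3, a subunit of the prolyl hydroxylase that stabilizes the triple helix, was at 0 to 0.0619 normalized FPKM in Control (0 to 4 counts) and 0.332 to 0.974 in Ai-α4KO BAT (25 to 76 counts). Plod2, the lysyl hydroxylase of collagen telopeptides, rose by 1.97 (adjusted p = 2.25e-05) and P3h2, a prolyl 3-hydroxylase, by 1.69 (adjusted p = 0.000117). Loxl4, a lysyl oxidase that cross-links fibrils, was higher in both tissues (2.23, adjusted p = 0.000721 in BAT, and 1.04, adjusted p = 0.00694 in iWAT). Colgalt1, which adds galactose to hydroxylysine, was also higher in both (1.29, adjusted p = 2.03e-06, and 1.20, adjusted p = 5.4e-06).

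Collagen receptors moved in both directions. Lair1, an inhibitory receptor of immune cells, was higher in BAT (4.05, adjusted p = 1.12e-07) and in iWAT (2.04, adjusted p = 3.79e-05), where macrophage markers were higher as well. Itga1, the α1 integrin chain that binds type IV collagen, was the one gene of the list called lower, in BAT (-1.70, standard error 0.10, adjusted p = 8.15e-08) and in iWAT (-1.11, standard error 0.14, adjusted p = 7.34e-05). Itga1 was at 13.8 to 14.9 normalized FPKM in Control and 3.73 to 4.89 in Ai-α4KO BAT, and at 4.55 to 6.99 and 2.21 to 3.12 in iWAT. In Control mice 20 of 43 genes of the list were lower in BAT than in iWAT and 3 higher (median -0.97). Of the 20, Itga2 and Loxl4 passed the low-count filter only through iWAT, the group where they are high. Their Control BAT libraries held 4 to 10 and 5 to 42 counts, and their calls cannot be read as support. In Ai-α4KO mice 3 of 44 genes of the list were lower and 1 higher (median -0.55). Over all genes, 14.7% were lower and 7.22% higher in Control mice, and 3.09% and 8.4% in Ai-α4KO mice.

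The remaining chains were at low levels. Col2a1, Col9a1, Col9a2, Col10a1 and Col25a1 passed the filter in no comparison, with at most 26 counts in any library (Col10a1). Col12a1, a FACIT chain of tendon and dense connective tissue, was at 0.593 to 3.22 normalized FPKM, and library 1 was the highest of both iWAT groups. Col28a1, outside the structural classes, was at 0.598 to 1.42 in Control and 0.622 to 2.98 in Ai-α4KO BAT (0.95, adjusted p = 0.0638). Col19a1 and Col20a1, both FACIT chains, differed by 1.21 (adjusted p = 0.0448) and -0.51 (adjusted p = 0.105) in BAT. Col6a5, a minor type VI chain, had positive differences in both tissues (1.19, adjusted p = 0.0435 in BAT, and 1.75, adjusted p = 0.0572 in iWAT) and was not called. Col17a1, an epithelial hemidesmosome chain, and Col9a3 reached at most 0.229 and 0.494 normalized FPKM in any library, and Col4a3, Col6a6 and Col8a2 were not called in any comparison.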

How the data were processed

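RNA of 20 libraries (5 per group) was prepared with the TruSeq Stranded mRNA kit. Reads were aligned with STAR 2.5.3a to mm10 after bcl2fastq 2, per the submitters' processing notes. The counting tool and annotation release are not given in the sources used here. The authors deposited expected counts per gene and FPKM values for each library, and 76.6% of the nonzero expected counts were whole. Expected counts were rounded to whole numbers. Libraries were grouped by their labels. Each of 4 comparisons, and the interaction over all 20 libraries, was fitted on all genes with edgeR 4.0.16 in R 4.3.3 (filterByExpr, TMM, quasi-likelihood test, Benjamini-Hochberg adjustment over all genes tested), and a gene was called at adjusted p below 0.01 and at least 2-fold. Standard errors are the log2 fold change divided by the root of F. Normalized FPKM was computed from the counts, TMM factors over all libraries and the deposited transcript width. The deposited FPKM values, which carry another scaling, served for chain ratios, class shares, ranks and the 10 FPKM limit. Chain ratios were compared by exact permutation tests.

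Library values are given in full for 21 chains: those with a mean of at least 10 FPKM, the 5 largest called changes per direction and tissue, chains with a called interaction, and the 3 largest per direction between the depots of Control mice. Of the synthesis and receptor genes the 5 largest called changes per direction and tissue are named. Other chains were described after their values were seen. The members, gene lists and tests were chosen with earlier results of these data known. The fit was tested on simulated data: of 100 genes changed by 1.5 on the log2 scale, 69% were recovered for iWAT (14493 genes) and 87% for BAT (14201 genes), and of 100 changed by 2.5, 93% and 98%. Among unchanged genes there was 1 false call for iWAT and 4 for BAT. The changed genes were drawn from those with a mean above 1 CPM, so these rates do not cover chains below it. Alternatives used DESeq2 1.42.0, limma 3.58.1 on log2(FPKM + 1) or log2(FPKM + 0.1) of genes with at least 0.5 FPKM in 5 libraries, other normalizations, filters and thresholds, a muscle marker covariate, a replicate block and fits without single libraries. Replicate libraries correlated at 0.935 to 0.988. Library totals set the counting precision, and a chain with few counts is given with them. Equal replicate numbers were checked and gave no sign of pairs, which cannot exclude that the same mice gave both tissues.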

Additional observations from a re-analysis of the deposited data

Results flagged for a closer look

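Within each group of 5 libraries, 16 of 156 sets of values had 1 library far from the other 4 (a gap over 0.71 of the range). An expected number of 7.8 holds only for independent, normally distributed values. Chains share libraries and several have few counts, so 7.8 does not measure chance for these 16 sets. Library 1 of Ai-α4KO iWAT held 8 of them, all above its group in normalized FPKM: Col5a3 at 133 (others 55.9 to 68.4), Col24a1 at 6.46 (0.0718 to 0.37), Col4a5 at 5.08 (0.867 to 1.79), Col4a6 at 0.994 (0.0184 to 0.17), Col12a1 at 3.21 (0.593 to 0.841), Col7a1 at 0.865 (0.111 to 0.29), Col8a1 at 4.74 (0.397 to 0.956) and Col8a2 at 2.03 (0.00789 to 0.0886). Library 1 of Control iWAT held 3, also above its group: Col1a1 at 225 (56.3 to 104), Col24a1 at 0.249 (0.0729 to 0.113) and Col12a1 at 3.22 (0.75 to 0.983). Library 4 of Ai-α4KO BAT was high for Col24a1 (0.795, others 0.188 to 0.32) and Col4a6 (0.0471, others 0 to 0.0123). Library 2 of Ai-α4KO BAT was high for Col6a4 (0.146, others 0 to 0.038). Library 1 of Control BAT was flagged for the same chain on 1 count (0.00632, others 0). Col4a5 was low in library 5 of Control BAT (1.22, others 1.8 to 1.98).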

How the results depend on the processing

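Of the counts of called chains, that of 12 lower in Control BAT stayed within 1.5 times under every alternative tried (8 to 16). In Ai-α4KO against Control iWAT, chains called higher (0) became 1 at adjusted p below 0.05 and 2 in a fit of all 20 libraries. Chains called lower (2) became 1 without normalization factors, without a filter, with at least 10 counts in every library, with limma on log2(FPKM + 0.1) and with the replicate block, 0 with limma on log2(FPKM + 1) with or without a filter, 0 without Control iWAT 1 and 4, 1 when Ai-α4KO iWAT 1 was also left out (chosen after seeing the data), and 1 to 2 without single libraries. In BAT, 7 higher became 1 with the muscle covariate. Chains lower in BAT (2) became 1 with at least 10 counts, with limma on log2(FPKM + 0.1) and with the muscle covariate, and 0 with limma on log2(FPKM + 1), filtered or not. Chains higher in Control BAT than iWAT (2) became 1 in the 3 limma fits, 4 in the fit of all libraries and 1 to 2 without single libraries. In Ai-α4KO mice, chains higher in BAT (2) became 4 with DESeq2, at adjusted p below 0.05 and in the fit of all libraries, 1 with at least 10 counts, in the limma fits and with the replicate block, 0 with the muscle covariate, and 1 to 5 without single libraries. Chains lower (0) became 3 with DESeq2, at adjusted p below 0.05, without a fold limit, in the fit of all libraries and with the muscle covariate, 4 without normalization factors, 1 with upper-quartile normalization and in the limma fits, and 0 to 4 without single libraries. With the muscle covariate, those 3 of 39 chains stood against 26 of 14703 genes called lower (0.177%), in place of 454. Interaction calls (0) became 4 with DESeq2, 3 at adjusted p below 0.05, 1 without Control iWAT 1 and 4 and Ai-α4KO iWAT 1, and 0 to 1 without single libraries. The causes were not tested.

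The log2 difference of Col6a3 over Col6a1 in BAT ranged from 0.263 to 0.390 without single libraries (exact permutation p up to 0.0635), and that of Col5a1 over Col5a2 in iWAT from -0.0258 to 0.0661. The type VI share in Control BAT was 13.6% as summed CPM. Log2 fold changes turned direction in 28 cases, all of chains that were not called. In iWAT, Col1a1 was at 0.00426, 0.00408 and 0.00426 in the limma fits (pseudocount 1, 0.1, and 1 without a filter), 0.0195 without Control 1 and 4, and -0.432 to 0.192 without single libraries. Col6a3 was at 0.0985 without normalization factors, 0.109, 0.112 and 0.109 in the limma fits, 0.00425 without Control 1 and 4 and Ai-α4KO 1, and -0.103 to 0.0782 without single libraries. Col5a2 was at -0.0387 without those 3 libraries, and without single libraries Col5a1 ranged from -0.00377 to 0.290 and Col16a1 from -0.0925 to 0.504. In BAT, Col27a1 was at 0.183 without normalization factors, 0.165, 0.185 and 0.165 in the limma fits, and -0.185 to 0.0494 without single libraries. Col4a2 was at 0.103, 0.0721, 0.0729 and 0.0721 in the same fits and 0.0504 with the muscle covariate. Col4a1 ranged from -0.00987 to 0.270 without single libraries, and Col6a2 was at -0.00332 without a filter, -0.00377 with the replicate block and -0.0872 to 0.102 without single libraries.

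Equal replicate numbers gave no sign of pairs (correlations of deviations from -0.45 to 0.24, and 0 to 2 of 5 libraries correlating best with their own number). Between the tissues, where a mouse could be shared, the correlations ran from -0.08 to 0.22 in Control and from -0.26 to 0.24 in Ai-α4KO libraries. Deviations in 2 tissues of a mouse need not correlate, so the check cannot exclude that equal numbers mean the same mouse. With the replicate block, Col13a1 in iWAT and Col26a1 between the tissues of Ai-α4KO mice lost their calls. Depth limits the chains under about 10 counts in a library, such as Col11a1, Col22a1 and Col6a4.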
